A study of Rattus norvegicus with 9 samples.

Results

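Acan, Vcan, Hapln1, Bgn, Dcn, Fmod, Lum, Prelp, Comp and Chad encode aggrecan and the other main proteoglycans and matrix adaptor proteins of the intervertebral disc. The 10 genes were selected by symbol from the deposited count table, which has 22324 genes, and each has 1 row in it. All 10 were among the 14956 genes that passed the filter on low counts and were tested. Chad was close to that filter, and its few counts are given with its result. Poly(A) RNA was sequenced from primary wild-type rat nucleus pulposus cells, which fill the soft centre of the disc, in 3 groups of 3 libraries. Cultures were kept in serum-containing DMEM rich in glucose. NC is read here as the untreated control, from titles and design text, but every sample, NC included, carries the same doxorubicin protocol text. SEN cells had received 200 nM doxorubicin, a DNA-damaging drug, for 24 h, then 6 days in fresh medium, which makes cells senescent. BNPMT cells were senescent cells of the same kind given an intervention of that name, which the labels do not expand and whose dose and timing they do not give. The labels do not say that replicates were separate cultures or animals. A p-value sets a group difference only against the spread estimated from these libraries, and that spread may be technical.

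Aggrecan is a large core protein that carries chondroitin sulfate and keratan sulfate chains. Many aggrecan molecules bind along a strand of hyaluronan, each held in place by link protein, the product of Hapln1, and the charged chains draw in the water that lets the disc bear load. Versican (Vcan) is a related hyaluronan-binding proteoglycan of more fibrous and developing tissue. Biglycan (Bgn), decorin (Dcn), fibromodulin (Fmod), lumican (Lum) and prolargin (Prelp) are small leucine-rich proteoglycans that bind collagen fibrils and influence their assembly. Chondroadherin (Chad) is a leucine-rich repeat protein of cartilage that binds collagen and cells. Cartilage oligomeric matrix protein (Comp) is a thrombospondin that links collagens to other matrix proteins. Loss of aggrecan and of its chains is a mark of disc degeneration.

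The genes ran from 1665 bases (Chad) to 12368 bases (Vcan) in the length the authors used for FPKM. Vcan was longer than 95.8% of tested genes and Acan, at 7728 bases, longer than 86.7%. RefSeq promoter entries on the rat build GRCr8 matched 7 of the 10 genes, with 8 windows, since Vcan has a pair of starts. The 250 bases before the annotated start are printed below, 5′ to 3′, for 5 genes: Acan and its partner Hapln1, the members with the widest swings (Fmod and Comp), and Vcan, which went its own way. Capitals mark matches, on either strand, to letters searched by a script. The AP-1 search used the letters TGANTCA. For SOX factors the letters were ACAANG. The search for SP1 was made with GGGCGG as its letters. The TATA box was searched as TATAAA on both strands.
Acan (chr1:142390701-142390950, plus strand): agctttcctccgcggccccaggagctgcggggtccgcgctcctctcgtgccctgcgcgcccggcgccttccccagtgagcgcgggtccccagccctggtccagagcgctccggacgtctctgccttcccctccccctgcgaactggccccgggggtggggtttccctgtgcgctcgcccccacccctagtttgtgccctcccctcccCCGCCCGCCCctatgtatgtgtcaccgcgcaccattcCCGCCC
Hapln1 (chr2:22366717-22366966, plus strand): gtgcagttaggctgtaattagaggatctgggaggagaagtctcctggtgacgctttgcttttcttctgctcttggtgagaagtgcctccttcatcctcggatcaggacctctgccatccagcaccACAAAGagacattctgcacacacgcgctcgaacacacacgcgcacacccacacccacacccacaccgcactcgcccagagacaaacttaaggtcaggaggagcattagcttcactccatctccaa
Fmod (chr13:48045317-48045566, plus strand): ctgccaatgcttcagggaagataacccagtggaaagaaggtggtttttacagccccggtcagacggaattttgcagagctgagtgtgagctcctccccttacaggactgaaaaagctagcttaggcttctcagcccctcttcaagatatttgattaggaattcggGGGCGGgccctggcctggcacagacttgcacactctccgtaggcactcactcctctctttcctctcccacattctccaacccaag
Comp (chr16:19089549-19089798, minus strand): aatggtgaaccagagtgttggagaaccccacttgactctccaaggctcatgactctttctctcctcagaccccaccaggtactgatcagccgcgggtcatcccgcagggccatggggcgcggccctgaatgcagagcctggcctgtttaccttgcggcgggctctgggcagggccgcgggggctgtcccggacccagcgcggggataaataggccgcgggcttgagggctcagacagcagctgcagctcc
Vcan (chr2:22595956-22596205, minus strand): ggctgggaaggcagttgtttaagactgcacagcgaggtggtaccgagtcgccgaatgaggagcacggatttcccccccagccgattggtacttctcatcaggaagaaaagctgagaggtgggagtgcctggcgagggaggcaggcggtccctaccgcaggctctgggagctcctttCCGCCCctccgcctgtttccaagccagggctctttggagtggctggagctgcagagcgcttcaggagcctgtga
The Acan window held 3 SP1 matches, a pair of them overlapping, and 73.6% of its bases were G or C. Vcan and Fmod held 1 SP1 match each, Hapln1 held 1 SOX match, and Comp held none of the 4. Over all 8 windows, SP1 letters were in 5, SOX letters in 2, TATA letters in 1 and AP-1 letters in 0. The pair of Vcan windows overlap, and the same SP1 match counts in both. Among all 33469 promoter entries, the same 250 bases held SP1 letters in 30.5%, SOX letters in 36.9%, TATA letters in 12.9% and AP-1 letters in 6.34%. A match is a description of the sequence only.

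Total counts were 31206834 to 41971877 per library, and 3 counts equal 0.0715 to 0.0961 CPM (counts scaled to the library total). The log2 changes below are scaled by TMM, which sets the bulk of genes level between libraries. The factors were close to 1.10 in NC, 0.80 in SEN and 1.12 to 1.15 in BNPMT, so over all tested genes the median log2 change was -0.01, 0.02 and 0.00 in SEN against NC, BNPMT against SEN and BNPMT against NC. On total counts alone these medians were -0.46, 0.52 and 0.06. TMM therefore gives higher values in SEN, relative to the other groups, than CPM does. With TMM, 5628 genes were called higher and 5754 lower in SEN against NC, and 6092 and 5969 in BNPMT against SEN. With total counts alone the splits were 3667 and 8513, and 8575 and 3857. SEN 1 and BNPMT 1 stood apart from their group mates in a trend with transcript length. A gene's deviation from its group mean correlated with length at Spearman's rho of -0.42 in SEN 1 and 0.51 in BNPMT 1, as a description across genes, which are not independent replicates. In bulk RNA, fewer cells of a type and less RNA per cell cannot be told apart. The floor of 3 counts covers counting error only, whereas the SD and SE values below include the spread between libraries.

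Aggrecan transcripts rose modestly in SEN and were the lowest in BNPMT. Acan stood at 599, 583 and 580.0 CPM in NC 1 to 3, at 644, 689 and 712 CPM in SEN 1 to 3, and at 358, 304 and 304 CPM in BNPMT 1 to 3. Every SEN library lay above every NC library, and every BNPMT library lay below both groups. The group means were 587 ± 10.4, 681 ± 34.5 and 322 ± 31.4 CPM (SD, n = 3 each).

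Link protein transcripts, from Hapln1, followed with a wider swing. Hapln1 stood at 239.5, 258 and 240.1 CPM in NC, at 454, 588 and 466 CPM in SEN, and at 163, 154 and 152 CPM in BNPMT. The 3 groups did not overlap, and the SEN libraries were the most spread, with a mean of 503 ± 73.9 CPM (SD, n = 3).

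Versican transcripts did not share that course. Vcan stood at 341, 338 and 331 CPM in NC, at 195, 234 and 239.6 CPM in SEN, and at 291, 223 and 226 CPM in BNPMT. All SEN libraries were below all NC libraries in CPM. SEN and BNPMT overlapped, and BNPMT 1 was the high library of its group.

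Biglycan had the most counts of the 10 genes in every library. Bgn stood at 3145, 2757 and 2744 CPM in NC, at 5454, 5665 and 6067 CPM in SEN, and at 2284, 1917 and 1960.0 CPM in BNPMT. The groups did not overlap. Bgn alone made up 57.9% ± 2.02 of the members' counts in NC and 57.9% ± 1.40 in BNPMT, and 63.6% ± 1.73 in SEN (SD, n = 3 each). The 10 genes together took 0.497% ± 0.0222 of all counts in NC, 0.901% ± 0.0368 in SEN and 0.354% ± 0.0259 in BNPMT.

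Decorin and lumican returned to the NC range in BNPMT. Dcn stood at 68.7, 75.1 and 70.9 CPM in NC, at 182, 193 and 166 CPM in SEN, and at 66.5, 72.8 and 69.3 CPM in BNPMT. Lum stood at 439, 495 and 459.7 CPM in NC, at 814, 950.0 and 771 CPM in SEN, and at 445, 492 and 474 CPM in BNPMT. For both genes all SEN libraries lay above the rest, and NC and BNPMT overlapped. For both genes NC 2, SEN 2 and BNPMT 2 were the highest of their groups.

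Fibromodulin and prolargin are close relatives and neighbours on the chromosome. Fmod stood at 227, 214 and 215 CPM in NC, at 624, 618 and 638 CPM in SEN, and at 102, 96.9 and 100.3 CPM in BNPMT. Prelp stood at 154, 156 and 149.9 CPM in NC, at 163, 161 and 165 CPM in SEN, and at 127, 114 and 120.1 CPM in BNPMT. Neither gene's groups overlapped, but the step from NC to SEN was large for Fmod and small for Prelp.

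Comp had the widest relative range. Comp stood at 7.79, 8.74 and 9.98 CPM in NC, at 62.8, 57.8 and 59.9 CPM in SEN, and at 3.16, 3.25 and 3.12 CPM in BNPMT. The SEN libraries were all far above the others, and the BNPMT libraries lay close together below NC. Chad was barely detected. The NC libraries had 5, 6 and 12 counts, the SEN libraries 17, 10 and 24, and the BNPMT libraries 7, 9 and 5. It passed the filter only through the SEN libraries, so it had to differ, and the counts of members are also given without it. The plot of CPM by library shows the 10 genes side by side.

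**Figure D1:**
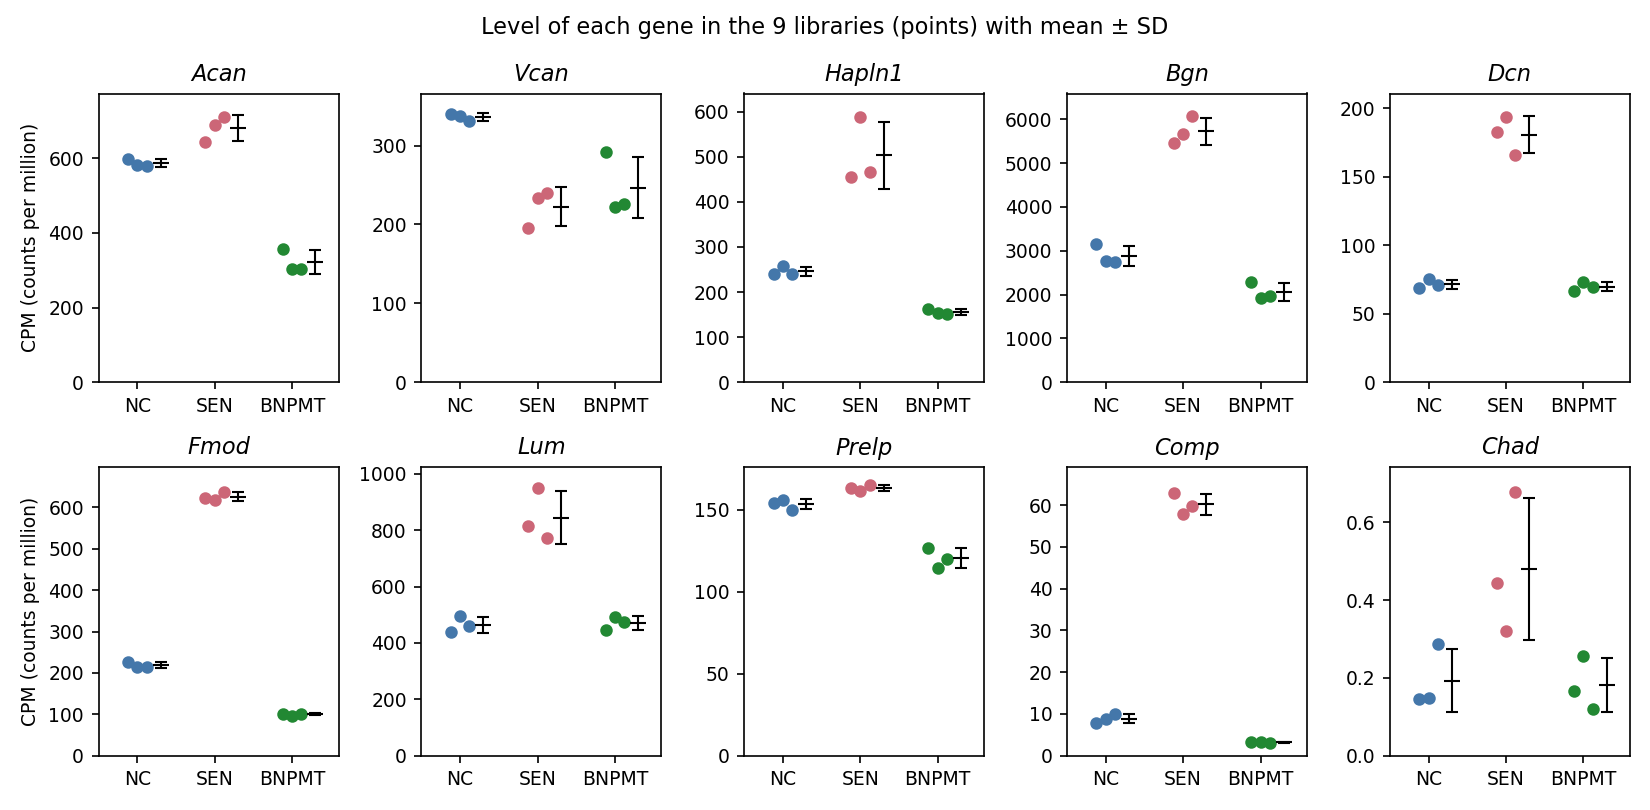
CPM of each of the 10 genes (vertical axes, linear, from 0) in the NC, SEN and BNPMT libraries (points), with the mean ± SD of each group. All SEN libraries lie above all NC libraries for 9 genes (8 without Chad), which held for 25.3% of tested genes. Vcan lies below, at 195 to 239.6 CPM in SEN against 331 to 341 CPM in NC, which held for 58.1% of tested genes.

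In SEN against NC, the comparison of doxorubicin-treated with control cells, 9 of the 10 genes rose, 0 fell and Vcan was not called. Without Chad, 8 of 9 rose. Of all tested genes, 37.6% were called higher and 38.5% lower, by edgeR's quasi-likelihood test at an adjusted p below 0.05. The median log2 change of the 10 genes was 1.46 (1.44 without Chad), against -0.01 over all tested genes. On total counts 8 rose, 1 fell and 1 was not called, with a median of 1.01 against -0.46, and the background was 24.5% higher and 56.9% lower. Without Chad these total-count calls were 7 and 1. In CPM, 9 genes lay above NC and 1 below with no overlap of the groups, which held for 25.3% and 58.1% of all tested genes (8 and 1 without Chad). The count of members lower was also 0 at an unadjusted p below 0.05 (0.145 for Vcan in edgeR's test) and by DESeq2's Wald test.

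Of the aggrecan aggregate, Acan rose by a log2 change of 0.67 ± 0.06 (SE, adjusted p = 3.34e-07), or 1.59-fold. On total counts the Acan change was 0.21 (adjusted p = 0.00864), the change that the CPM values show. Hapln1 rose by 1.48 ± 0.08 (adjusted p = 1.55e-09). The Vcan change was -0.14 ± 0.09 (adjusted p = 0.174). Vcan was called lower on total counts (-0.60, adjusted p = 7.22e-05), after removal of each library's length trend (-0.47, adjusted p = 5.81e-08) and when BNPMT 1 was left out (-0.15, adjusted p = 0.0274). The median over all tested genes was itself -0.46 on total counts and -0.24 after that removal.

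All 5 small leucine-rich proteoglycans rose. Fmod rose most, by 1.97 ± 0.05 (adjusted p = 3.51e-13), and Dcn by 1.79 ± 0.07 (adjusted p = 3.25e-11). Bgn rose by 1.44 ± 0.07 (adjusted p = 5.42e-10) and Lum by 1.32 ± 0.08 (adjusted p = 2.8e-09). On total counts Lum rose by 0.86. Prelp rose by 0.54 ± 0.05 (adjusted p = 2.9e-07), a call lost on total counts (0.09, adjusted p = 0.126). Chad was at 1.74 ± 0.44, from 23 counts over the 3 NC libraries to 51 over the 3 SEN libraries. It passed the filter only through the SEN libraries, so its call here gives no support for a rise. Comp, the thrombospondin, rose by 3.22 ± 0.09 (adjusted p = 7.58e-13), or 9.29-fold.

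In BNPMT against SEN, the comparison of treated with untreated senescent cells, all 10 genes fell, and 9 of 9 without Chad. Of all tested genes, 39.9% were called lower and 40.7% higher. The median log2 change of the 10 genes was -1.90 (-1.88 without Chad), against 0.02 over all tested genes. On total counts 9 fell and Vcan was not called, with a median of -1.40 against 0.52, and 25.8% of all tested genes were lower and 57.3% higher (8 fell without Chad). The members called higher numbered 0, also by DESeq2's Wald test and at an unadjusted p below 0.05. The CPM groups did not overlap for 9 members, all lower, against 25.2% of tested genes (8 without Chad). Each pair of comparisons shares a group of libraries, here SEN, so their changes are not independent.

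Comp fell most in BNPMT against SEN, with a log2 change of -4.75 ± 0.10 (SE, adjusted p = 5.18e-14), and Fmod fell by 3.16 ± 0.05 on that scale (adjusted p = 6.49e-15). Hapln1 changed by -2.19 ± 0.09 (adjusted p = 2.98e-11) and Acan by -1.58 ± 0.06 (adjusted p = 4.44e-11). The values of link protein were thus wider than those of aggrecan in both comparisons, a difference between genes that was not tested. Bgn changed by -1.98 ± 0.07, Dcn by -1.88 ± 0.07 and Lum by -1.35 ± 0.08. Chad was at -1.93 ± 0.45, but it passed the filter only through the SEN libraries, so its call gives no support for a fall. Lum was at -0.84 on total counts, and Prelp, at -0.94 ± 0.05, was at -0.44.

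Vcan was the member whose direction depended on the scale in BNPMT against SEN. Its change was -0.36 ± 0.09 (adjusted p = 0.00301) with TMM, 0.15 on total counts (adjusted p = 0.176) and 0.34 after removal of the length trend (adjusted p = 2.74e-06). The medians over all tested genes were 0.02, 0.52 and 0.25 in these settings. Vcan thus lay below the median on the first 2 scales and above it only after removal of the trend. Without SEN 1 and BNPMT 1, the libraries that stood apart by transcript length, the Vcan change was -0.56. Vcan is the longest of the 10 genes, and over all 14956 tested genes the log2 change in this comparison correlated with length at Spearman's rho of -0.16. The part of the length trend in the Vcan value was not tested beyond that alternative.

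In BNPMT against NC, 7 of the 10 genes fell, 0 rose, and Dcn, Lum and Chad were not called. The same 7 fell without Chad in the count. Of all tested genes 26.5% were called lower and 26.3% higher. The median log2 change of the members was -0.52, against 0.00 over all tested genes. DESeq2's Wald test also called 7 lower and 0 higher, and so did total counts, where 22.5% of tested genes were lower. In CPM the same 7 genes lay below NC with no overlap, which held for 26.4% of tested genes.

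Acan changed by -0.92 ± 0.06 in BNPMT against NC (SE, adjusted p = 1.97e-07), Hapln1 by -0.70 ± 0.08 (adjusted p = 1.89e-05) and Vcan by -0.50 ± 0.09 (adjusted p = 0.00058). Comp changed by -1.53 ± 0.10 (adjusted p = 1.58e-07) and Fmod by -1.19 ± 0.05 (adjusted p = 3.11e-09). Bgn was at -0.54 ± 0.07 and Prelp at -0.40 ± 0.05. Both passed the test. Dcn, at -0.09 ± 0.07 (adjusted p = 0.283), Lum, at -0.03 ± 0.08 (adjusted p = 0.762), and Chad, at -0.19 ± 0.51 (adjusted p = 0.786), did not.

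This comparison had the steepest relation with length, a Spearman's rho of -0.48 between log2 change and length over all 14956 tested genes. After removal of the trend, Acan was at -0.64 (adjusted p = 8.92e-10) and Vcan at -0.13 (adjusted p = 0.0224). Under that alternative Dcn (-0.28, adjusted p = 0.00127) and Lum (-0.24, adjusted p = 0.0103) were called lower, so 9 members fell. The share of all tested genes called lower was then 22.5%.

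**Figure D2:**
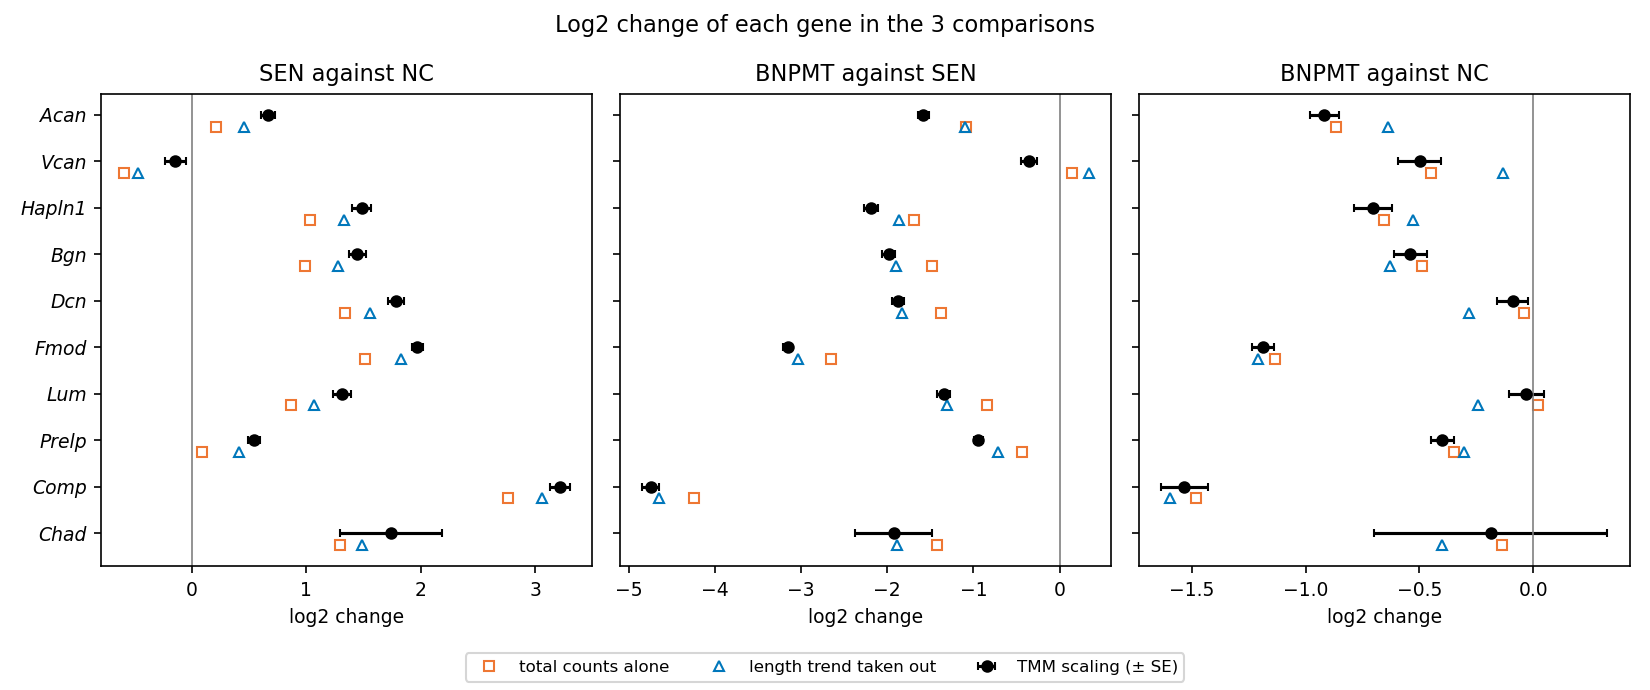
Log2 change of the 10 genes (horizontal axes) in the 3 comparisons, with TMM scaling (black points, ± SE), on total counts alone (squares) and with the length trend taken out (triangles). Vcan changes side in BNPMT against SEN, from -0.36 with TMM to 0.15 and 0.34, while Comp keeps the widest changes, 3.22 and -4.75 with TMM.

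Over the comparisons, with TMM, 9 members were called higher in SEN against NC and lower in BNPMT against SEN, as were 32.4% of tested genes. The 9 are all members but Vcan. Of these, 6 were also lower in BNPMT than in NC (Acan, Hapln1, Bgn, Fmod, Prelp and Comp), a pattern of 10.3% of tested genes, and 3 were not called in that comparison (Dcn, Lum and Chad). Without Chad, 8 of 9 members had the first pattern, 6 of them also lower in BNPMT than in NC and 2 not called there. These patterns depend on the scale. On total counts Prelp was not called in SEN against NC (0.09), so it left both patterns. With the length trend taken out, Dcn (-0.28) and Lum (-0.24) were called lower in BNPMT against NC. The shares of all tested genes with these patterns on those scales are not given here.

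Levels of different genes can be set side by side per length, in FPKM. The order in NC began with Bgn at 1185 ± 93.7 FPKM and Lum at 269 ± 16.4 FPKM (SD, n = 3 each). Acan, at 76.0 ± 1.35 FPKM, and Fmod, at 74.4 ± 2.53 FPKM, followed with overlapping libraries. Hapln1 (46.4 FPKM), Dcn (39.0) and Prelp (36.9) came next, the last pair overlapping, then Vcan (27.2 FPKM), Comp (3.36 FPKM) and Chad (0.116 FPKM).

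The order changed in SEN. Bgn (2356 FPKM) and Lum (489 FPKM) stayed at the top, and Fmod, at 213 ± 3.45 FPKM, stood clear of all below it. Dcn (98.5 FPKM) overlapped Hapln1 (95.0 FPKM), which overlapped Acan (88.2 FPKM), so aggrecan was sixth by mean. Comp, at 22.9 ± 0.959 FPKM, stood above Vcan, at 18.0 ± 1.96 FPKM. In BNPMT the top was again Bgn (844.5 FPKM), Lum (272 FPKM) and Acan (41.7 FPKM), with Dcn (37.9 FPKM) overlapping Acan. Fmod (33.8 FPKM), Hapln1 (29.5), Prelp (29.0, overlapping Hapln1), Vcan (19.9), Comp (1.21) and Chad (0.109) followed.

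**Figure D3:**
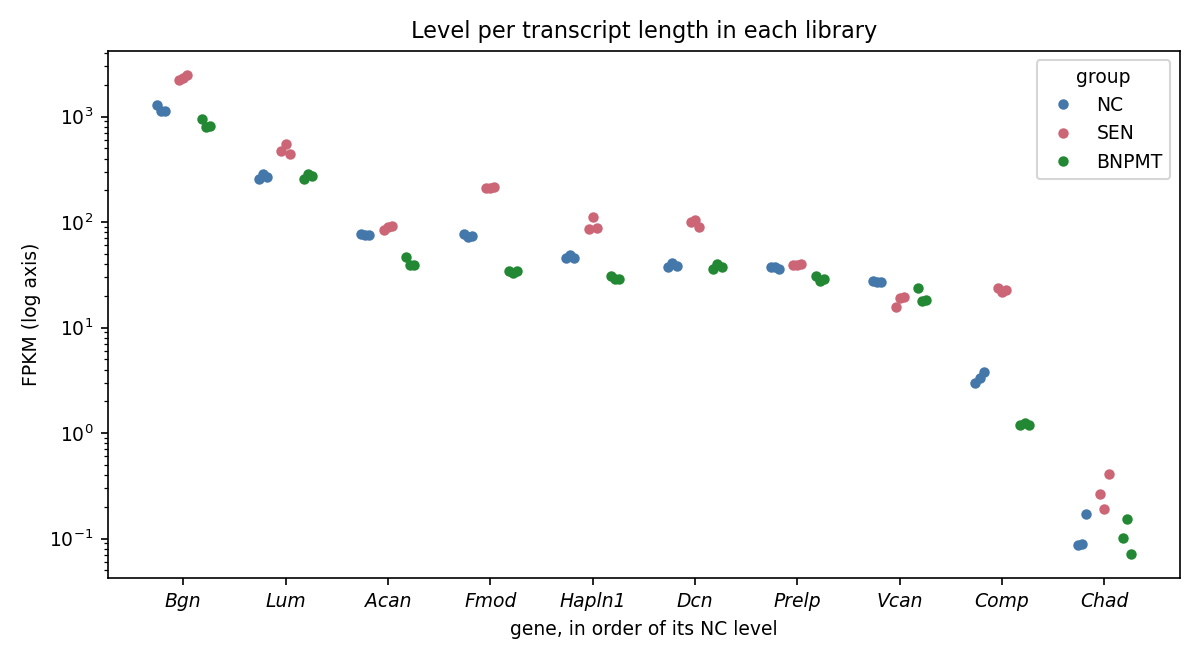
FPKM (log axis) of the 10 genes in each library, with genes in the order of their NC level and colours for the groups. Bgn and Lum lead in every group, Fmod moves from 74.4 FPKM in NC to 213 in SEN, and Comp from 3.36 to 22.9.

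Ratios within a library do not change with the factor that scales the library, but they do move with its length trend, since Acan is longer than every other member but Vcan. They were computed for description, with no test. In FPKM, Vcan per Acan was 0.358 ± 0.00386 for NC, 0.204 ± 0.0126 for SEN and 0.477 ± 0.0274 for BNPMT (SD, n = 3). The versican share was thus lowest in SEN and highest in BNPMT, and no 2 groups overlapped. Hapln1 per Acan was 0.611 ± 0.032, 1.08 ± 0.15 and 0.711 ± 0.0395, so by mean link protein exceeded aggrecan per length in SEN, although SEN 3 was at 0.957.

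Among the small proteoglycans, Bgn per Acan was 15.6 ± 0.95, 26.7 ± 0.513 and 20.3 ± 0.247 in the same order of groups, with no overlap. Dcn per Acan was 0.514, 1.12 and 0.918, and its SEN and BNPMT libraries overlapped. Lum per Acan was 3.54 ± 0.262, 5.56 ± 0.665 and 6.59 ± 0.903, again with SEN and BNPMT overlapping. In BNPMT both ratios lay above NC, with Acan lower than in NC and with Dcn and Lum in the NC range. These BNPMT against NC differences are partly or wholly lost after removal of the length trend. The log2 change of Bgn less that of Acan went from 0.38 with TMM to 0.0069, that of Dcn from 0.83 to 0.36, and that of Lum from 0.89 to 0.40. Fmod per Acan was 0.978, 2.42 and 0.816. Prelp per Acan was highest in BNPMT, at 0.698 ± 0.0396, against 0.486 in NC and 0.446 in SEN, and its log2 change less that of Acan in BNPMT against NC was 0.52 with TMM and 0.33 without the length trend. Comp per Acan was 0.0443, 0.26 and 0.0291.

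Lumican and fibromodulin can bind the same region of collagen, and their ratio was lowest in SEN and highest in BNPMT. Lum per Fmod was 3.62 ± 0.329 for NC, 2.3 ± 0.287 for SEN and 8.06 ± 0.593 for BNPMT, with no overlap. Hapln1 per Vcan was 1.71 ± 0.0709, 5.29 ± 0.679 and 1.5 ± 0.164. NC and BNPMT did not overlap there either, since BNPMT libraries reached 1.61 at most and NC began at 1.64.

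**Figure D4:**
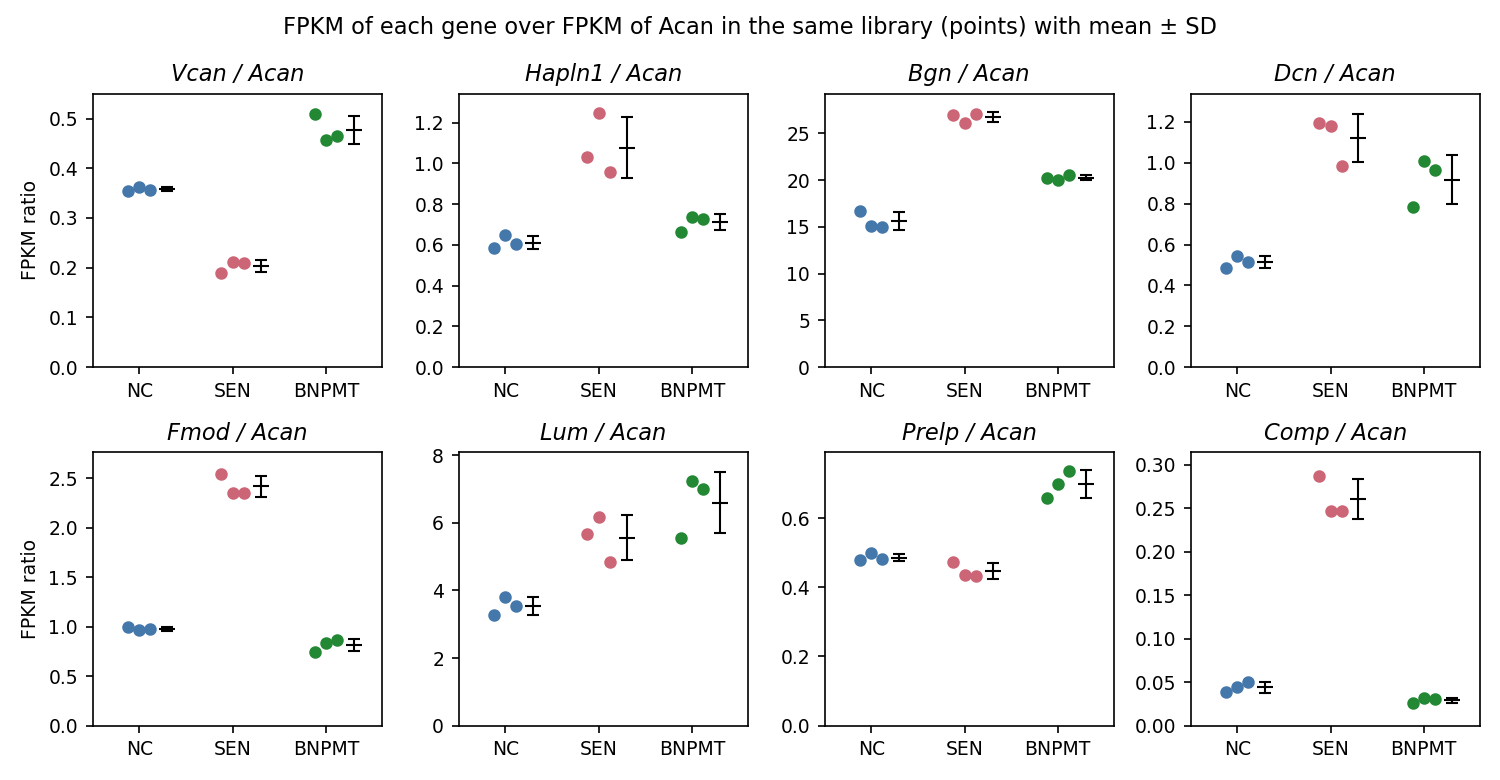
FPKM of 8 genes divided by the FPKM of Acan in the same library (vertical axes, from 0), as points with the mean ± SD of each group. Vcan and Prelp per Acan are highest in BNPMT (0.477 and 0.698), while Fmod and Comp per Acan are highest in SEN (2.42 and 0.26).

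The genes also differed in how closely they moved together over the 9 libraries, in log2 TMM-scaled CPM. These correlations are a description, since the libraries fall into 3 groups that set most of each value. Pearson's r was 0.997 for Dcn with Lum, and 0.996 for Fmod with both Comp and Prelp. Acan was closest to Prelp (0.981) and Fmod (0.968). Vcan stood apart, with r from 0.198 (Lum) to 0.701 (Acan).

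The genes whose pattern was most like that of Acan, by the same measure among 9046 tested genes with at least 10 CPM, were Nt5dc3, Neo1, Glis2, Eif4enif1 and Svep1, all with r of 0.998 over 9 libraries. Neo1 encodes the receptor neogenin, Glis2 a zinc finger protein, and Svep1 a large extracellular matrix protein. Their lengths ran from 4947 bases (Eif4enif1) to 11518 bases (Svep1), against 7728 bases for Acan. The length trend was left in this measure, and its part in the likeness was not tested. Nt5dc3 stood at 88.7, 97.8 and 57.1 CPM in NC, SEN and BNPMT, and Svep1 at 108, 153 and 47.8 CPM, with no overlap of groups. Neo1 (157, 165 and 99.0 CPM), Glis2 (76.1, 75.8 and 48.4 CPM) and Eif4enif1 (56.1, 55 and 36.7 CPM) overlapped between NC and SEN in CPM. For all 5 genes every BNPMT library lay below both other groups.

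Several of the 10 genes lie beside each other or beside relatives, by the gene order of the RefSeq table on GRCr8. Hapln1 neighbours Vcan, and these adjacent genes had different courses, as given above. Hapln3, another link protein gene, neighbours Acan. It was low, at 2.98 ± 0.476 CPM for NC, 6.75 ± 0.593 for SEN and 4.18 ± 0.895 for BNPMT (SD, n = 3 each). It rose in SEN by a log2 change of 1.63 ± 0.17 (adjusted p = 1.02e-06) and fell in BNPMT against SEN by 1.20 ± 0.17 on that scale (-0.70 on total counts). In BNPMT against NC, where Acan fell, Hapln3 was at 0.43 ± 0.18 (adjusted p = 0.0531). It was called higher there on total counts (0.48, adjusted p = 0.0328) and after removal of the length trend (0.52, adjusted p = 0.0262), and its NC and BNPMT libraries overlapped in CPM.

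Dcn, Lum, Kera and Epyc lie in a row, and Optc, Prelp and Fmod in another. All are small leucine-rich proteoglycan genes. Epyc (epiphycan) went from 3.61 CPM in NC to 7.47 in SEN and 1.07 in BNPMT, with log2 changes of 1.5 ± 0.19 in SEN against NC and -1.79 ± 0.22 in BNPMT against NC. Kera (keratocan) and Optc (opticin) were named after their values were seen. Kera stood at 2.01, 9.01 and 0.284 CPM and Optc at 1.76, 6.66 and 0.907 CPM. In BNPMT against NC, Epyc, Kera (-2.88) and Optc (-0.99) fell, whereas Dcn and Lum, in the same row as Epyc and Kera, were not called.

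Reads of overlapping genes could be shared, and the strand of the counting is not given in the sources used here. Chad overlaps Acsf2, which stood at 20.2 CPM in NC, 8.07 in SEN and 19.8 in BNPMT, so the counts of Chad are uncertain. Acsf2 fell in SEN against NC, by 0.87 ± 0.08 on the log2 scale (-1.32 on total counts). Chad passed the filter only through its SEN libraries, so its course there cannot show whether reads were shared, which was not tested. Dcn, Fmod and Prelp each overlap 1 other locus, all of them under 1 CPM in every group.

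The other genes of the pathway were taken from lists, again with edgeR's test, and their counts are read against the shares of all tested genes given above. Of 12 tested hyaluronan, lectican and link protein partners (16 listed), 8 rose and 3 fell in SEN against NC, with a median log2 change of 1.19. In BNPMT against SEN 3 rose and 8 fell. Cd44, the main hyaluronan receptor, rose from 169 ± 4.57 CPM in NC to 671 ± 11.8 in SEN, a log2 change of 2.44 ± 0.05 (adjusted p = 8.22e-14). It was at 187 ± 9.52 CPM in BNPMT, and the change against NC did not pass the test with TMM (0.09 ± 0.05, adjusted p = 0.149). Cd44 was called higher there on total counts (0.14, adjusted p = 0.0345) and after removal of the length trend (0.27, adjusted p = 2.42e-05), and its NC and BNPMT libraries did not overlap in CPM. Cemip and Hyal2, which take part in hyaluronan breakdown, fell in SEN against NC, Cemip by 0.57 ± 0.07 on the log2 scale (-1.02 on total counts) and Hyal2 by 0.94 ± 0.06 (-1.39 on total counts). Of the hyaluronan synthases, named after their values were seen, Has1 stood at 0.0719, 6.15 and 0.00794 CPM in NC, SEN and BNPMT, Has3 at 0.253, 8.80 and 0.153 CPM, and Has2 at 22.6, 17.5 and 15 CPM. Has2 did not pass the test in SEN against NC with TMM (0.09 ± 0.07, adjusted p = 0.304) and was called lower on total counts (-0.37, adjusted p = 0.000392).

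Of the 12 other small leucine-rich proteoglycans and relatives, 7 rose and 2 fell in SEN against NC, 9 fell and 2 rose in BNPMT against SEN, and 9 fell and 0 rose in BNPMT against NC. On total counts the first split was 6 and 4. Ogn, which encodes mimecan, went from 452 ± 21.3 CPM in NC to 1050.2 ± 143 in SEN and 166 ± 11 in BNPMT, with log2 changes of 1.67 ± 0.08 and -3.16 ± 0.09 in the first and second comparison. Tsku, which encodes tsukushi, went the other way, from 49.7 to 15 and 38.8 CPM. Aspn, which encodes asporin, was at 495, 384 and 315 CPM, and its change in SEN against NC was 0.09 ± 0.12 (adjusted p = 0.541), or -0.37 on total counts, where it was called lower (adjusted p = 0.015). Of the 22 tested proteoglycans of other families (23 listed), 14 rose and 3 fell in SEN against NC, but 9 rose and 7 fell on total counts. The 3 most abundant of these, Hspg2 (perlecan), Sdc2 (a syndecan) and Gpc1 (a glypican), were called higher with TMM (0.32, 0.37 and 0.38) and were at -0.14, -0.08 and -0.08 on total counts. All 3 fell in BNPMT against SEN on both scales, with TMM changes of -1.55, -0.87 and -0.84.

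Most tested genes of chondroitin and dermatan sulfate synthesis fell in SEN. Of 22 such genes tested (23 listed), 5 rose and 14 fell in SEN against NC, with a median of -0.63, and 3 rose and 17 fell on total counts. In BNPMT against SEN 12 rose and 7 fell (15 and 5 on total counts), and in BNPMT against NC 4 rose and 12 fell. Dse, a dermatan sulfate epimerase, fell by 0.48 ± 0.06 on the log2 scale (adjusted p = 3.66e-06), from 124 ± 3.53 CPM in NC to 64.6 ± 1.24 CPM, and was at -0.94 on total counts. Chsy1, a chondroitin synthase, fell from 137 ± 7.27 to 88.3 ± 7.06 CPM (-0.18 ± 0.07 with TMM, adjusted p = 0.0298, and -0.63 on total counts), and was at 101 ± 7.47 CPM in BNPMT. Against SEN, Chsy1 was called lower in BNPMT with TMM (-0.31, adjusted p = 0.000986) but higher on total counts (0.19, adjusted p = 0.0244). Chpf, which encodes a chondroitin polymerizing factor, rose by 0.71 ± 0.06 (adjusted p = 1.22e-07), or 0.26 on total counts. The xylosyltransferases that start the chains, named after their values were seen, parted: Xylt1 went from 11 to 50.2 and 7.34 CPM in NC, SEN and BNPMT, and Xylt2 from 35.2 to 9.80 and 42.0 CPM.

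Of the 7 genes of keratan sulfate synthesis, 1 rose and 6 fell in SEN against NC, on both scales, and 5 rose and 1 fell in BNPMT against SEN. Chst2, a sulfotransferase, went from 74.0 ± 1.66 CPM to 23.2 ± 0.745 and 77.7 ± 0.324, a log2 change of -1.22 ± 0.06 in SEN against NC (adjusted p = 1.63e-10) and 0.02 ± 0.05 in BNPMT against NC (adjusted p = 0.753). After removal of the length trend Chst2 was called higher in BNPMT against NC (0.24, adjusted p = 0.00259). B4galt1, a galactosyltransferase, fell in SEN by 0.55 ± 0.06 (-1.0 on total counts) and B3gnt2 rose by 0.65 ± 0.06 (0.19 on total counts). Of the 11 genes that supply sugar nucleotides and sulfate, 8 rose and 3 fell with TMM but 3 rose and 4 fell on total counts. Ugdh, which makes the UDP-glucuronate needed for these chains and for hyaluronan, rose on both scales (1.16 ± 0.05 with TMM and 0.71 on total counts), from 112 to 184 CPM.

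The core-cleaving proteases and their inhibitor were also split. Of 11 genes, 6 rose and 3 fell in SEN against NC, and 4 rose and 4 fell on total counts. Adamts1, an aggrecan- and versican-cleaving protease, went from 873 ± 7.14 CPM in NC to 187 ± 10.2 in SEN and 841 ± 83.6 in BNPMT, a log2 change of -1.77 ± 0.07 in SEN against NC (adjusted p = 1.86e-11). Timp3, which inhibits such proteases, went from 59.4 ± 4.24 to 186 ± 9.49 and 33.8 ± 3.27 CPM, with changes of 2.10 ± 0.07 in SEN against NC (adjusted p = 1.24e-11) and -2.96 ± 0.08 in BNPMT against SEN. Htra1, a serine protease that cleaves small proteoglycans, was highest in BNPMT, at 977 ± 47.7 CPM against 606 ± 5.24 in NC (0.64 ± 0.06, adjusted p = 1.92e-06). Of the main aggrecanases, named after their values were seen, Adamts5 fell from 38.9 ± 5.37 to 9.45 ± 0.599 CPM, while Adamts4 was at 4.47 ± 0.372 and 4.87 ± 0.137 CPM. Adamts4 was called higher with TMM (0.58 ± 0.13, adjusted p = 0.00118), a call lost on total counts (0.12, adjusted p = 0.400).

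Of the 10 thrombospondins, matrilins and CILP genes, the company of Comp, 8 rose and 2 fell in SEN against NC (5 and 3 on total counts), and 9 fell and 0 rose in BNPMT against NC. The most abundant, Thbs1, did not follow Comp. It fell from 12286 ± 262 CPM to 4249 ± 384 in SEN (-1.08 ± 0.09, adjusted p = 1.33e-07) and was at 6009 ± 1012 CPM in BNPMT. Against SEN, Thbs1 was not called in BNPMT with TMM (-0.0043, adjusted p = 0.968) but was called higher on total counts (0.50, adjusted p = 0.000283). Cilp fell in BNPMT to 65.0 ± 4.65 CPM from 206 ± 7.24 in SEN (-2.17 ± 0.06, adjusted p = 5.46e-13). Of the 11 lysosomal genes that break the sulfated chains, 7 rose and 3 fell in SEN against NC. Hexa, a hexosaminidase subunit, rose by 1.22 ± 0.07 (adjusted p = 1.33e-09; 0.77 on total counts), from 156 to 266 CPM.

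**Figure D5:**
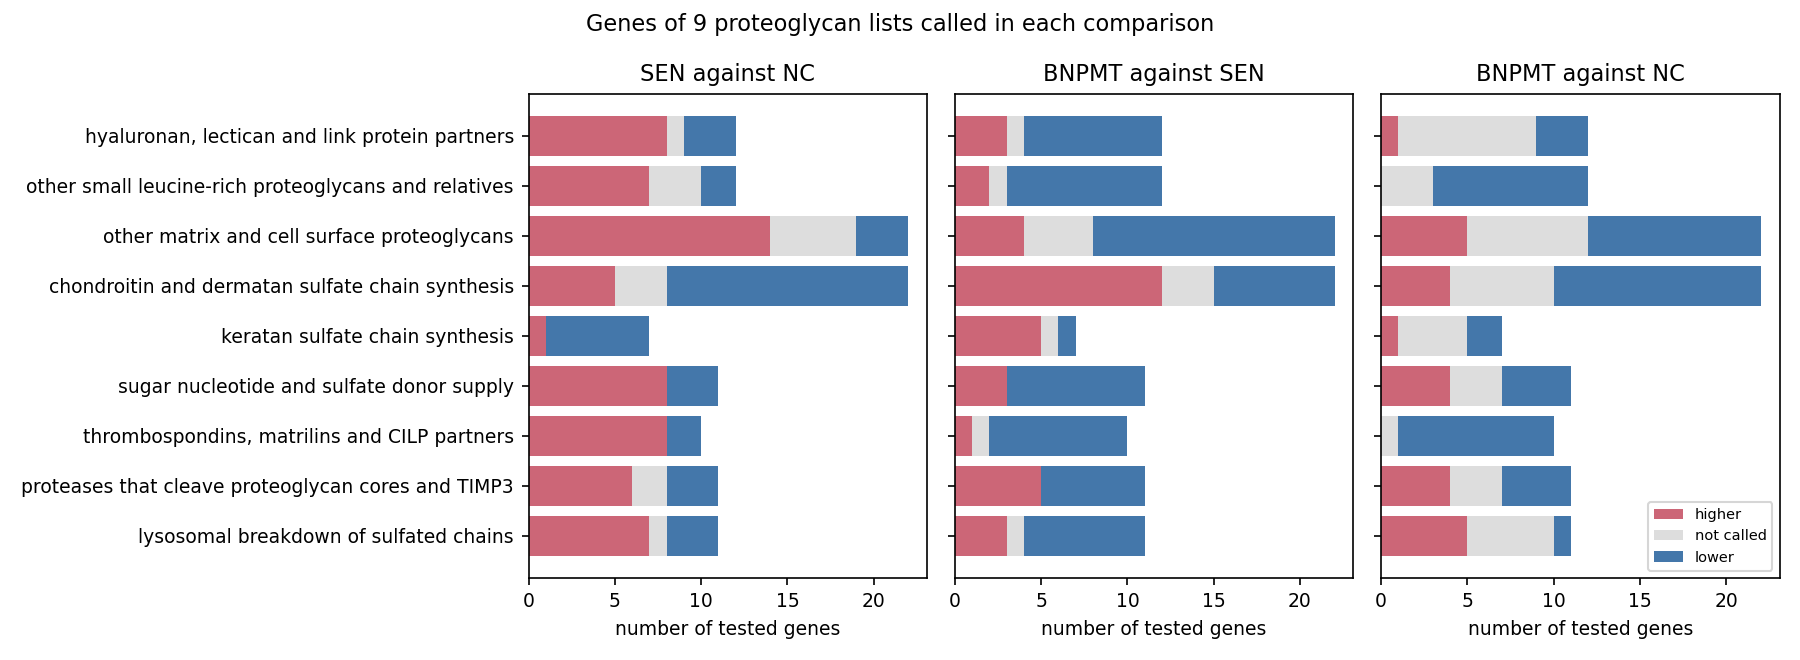
For each fixed list of pathway genes, the number of tested genes called higher and lower by edgeR's test in the 3 comparisons, with TMM scaling. In SEN against NC the chain synthesis lists lean to lower (5 higher and 14 lower, and 1 and 6), while hyaluronan partners lean to higher (8 and 3).

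The labelled cell type was compared with its markers. Of the 16 nucleus pulposus and notochord marker symbols listed, 12 were matched. Ca12 and Ca3 are other symbols for Car12 and Car3, which were matched, so the markers not found were Noto and Shh. Col2a1, a cartilage collagen, was high (4571, 6492 and 1962 CPM in NC, SEN and BNPMT). Sox9, Pax1, Foxf1, Car3, Cd24 and Cdh2 were present, and Car12 stayed under 1 CPM in each group's mean. Pax1 (135, 52.7 and 149 CPM), Car3 (175, 79.7 and 129), Foxf1 (30.6, 17.15 and 29.2) and Cdh2 (34.9, 14 and 34) were lowest in SEN. Cd24 was highest in SEN, at 29.9, 47.2 and 42.2 CPM, and Sox9 was lowest in BNPMT. Of the 9 markers tested, 5 were called higher and 4 lower in SEN against NC (4 and 4 on total counts). Of the notochordal markers, Tbxt had 21 counts and Krt18 20 counts over all 9 libraries, and Krt19 stayed under 1 CPM in each group's mean. Krt8 was present at a low level, at 4.16, 5.73 and 2.18 CPM. Col1a1, a marker of annulus and fibroblasts, stood at 30450, 30516 and 13039 CPM, above Col2a1 in every group.

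Summed marker levels also differed between the groups. The nucleus pulposus list had sums of 4886 to 5141 CPM (NC), 6647 to 6820 CPM (SEN) and 2292 to 2464 CPM (BNPMT), carried by Col2a1. These sums do not show the course of its other markers, of which Pax1, Car3, Foxf1 and Cdh2 were lowest in SEN. The 9 annulus and fibroblast markers summed to 39074 to 40588, 38804 to 39112 and 17718 to 20481 CPM, carried by Col1a1 and Col1a2. The other markers of this list had mixed courses. Thy1 (506, 186 and 617 CPM), Pdgfra (242, 106 and 222) and Mkx (96.2, 58.8 and 86.9) were lowest in SEN. Tnmd (39.0, 94.2 and 19.4 CPM) and Postn (1051, 1430 and 662) were highest in SEN. Scx (45.2, 41.9 and 64.4 CPM) and Fbln1 (60.1, 58.5 and 64.4) were highest in BNPMT. The 7 smooth muscle markers summed to 4810 to 4855, 1530 to 1712 and 2774 to 3016 CPM. The 5 hypertrophic chondrocyte markers summed to 3.39 to 4.42, 9.90 to 10.5 and 1.0 to 1.43 CPM, with Col10a1 under 1 CPM in each group's mean and Ihh at 0.0329, 3.85 and 0.0333 CPM. The 7 endothelial markers summed to 1.04 to 1.55, 4.95 to 5.54 and 0.981 to 1.54 CPM, and Cdh5 had 2 counts in all. Pecam1 stood at 0.0165, 4.04 and 0.0254 CPM, so it carried most of the SEN sum. Of the 8 leukocyte markers 6 were matched. They summed to 11.3 to 12.9, 31.2 to 34.4 and 16.4 to 18.4 CPM, and Adgre1 had 1 count in all. Cd68, a macrophage marker, stood at 0.464, 22.6 and 0.527 CPM and Itgam at 0, 3.97 and 0 CPM, both highest in SEN. Lyz2 and Csf1r were also highest in SEN, at lower levels. Cd14 went the other way, at 11.4, 4.04 and 16.6 CPM, and made up most of the NC and BNPMT sums. No matched marker was at 0 in all libraries. The part of these markers' cells in the changes of the 10 genes was not tested.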

How the data were processed

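The authors deposited whole-number counts per gene and FPKM. Per the submitters' processing notes, the tools were fastp, HISAT2 and HTSeq and the build was mRatBN7.2, with no versions. Annotation and strand setting are not given in the sources used. Each deposited FPKM is a count divided by gene length and library total (largest relative difference 8.22e-16). RNA was extracted with TRIzol and libraries were made with the VAHTS Universal V6 kit, per the labels.

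The tests used edgeR 4.0.16 (R 4.3.3) with filterByExpr, TMM, a quasi-likelihood F test over all 9 libraries in 3 groups, and Benjamini-Hochberg adjustment over 14956 genes with a threshold of 0.05. The SE is the size of the log2 change over the square root of F. CPM is per total count. Alternatives were DESeq2 size factors, total counts, DESeq2 1.42.0, other filters, fits of only the compared groups, a replicate block, limma 3.58.1 on log2(FPKM + 1) and log2(FPKM + 0.1), whose constant understates low genes, a loess length trend (span 0.75) taken out, and left-out libraries. The edgeR fit of SEN against NC was tested on simulated data, with 50 genes changed at each fold. It recovered 24.5% of 1.25-fold, 66% of 1.5-fold, 83.7% of 2-fold and 100% of 4-fold changes, and called 8 unchanged genes. A gene not called may therefore still have changed by a small fold. No library pair was a duplicate (chi-square per degree of freedom 3.41 to 31.6).

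The members, lists and alternatives were chosen with earlier results of these data known. Named genes are all members, the 3 genes of each list with the highest mean CPM, Hapln3, Epyc and the 5 genes most correlated with Acan. Outside that rule, Kera, Optc, Has1 to Has3, Xylt1, Xylt2, Adamts4 and Adamts5 were named after their values were seen, Acsf2 as the gene that overlaps Chad, and cell type markers from the marker lists. The labels give NC the same treatment text as the others.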

Additional observations from a re-analysis of the deposited data

How the results depend on the processing

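Over 20 alternatives, 113 of 120 counts of members called stayed within 1.5 times, and of the single-gene values 573 kept direction and call, 12 changed sign, 8 gained a call and 3 lost one. The count of members called lower in SEN against NC, 0 in the report, was 1 (Vcan) on total counts, with no filter on low counts, in both limma fits on log2 FPKM, and with the length trend taken out. Leaving out each library in turn gave 0 to 1 there, the 1 being without BNPMT 1. Members called higher in BNPMT against SEN, 0 in the report, numbered 1 (Vcan) with the length trend taken out. The Vcan change in SEN against NC was -0.20 with no filter (adjusted p = 0.0179). The Prelp call in SEN against NC was lost on total counts and in both limma fits (adjusted p = 0.126, 0.0859 and 0.0931). Vcan changed sign in BNPMT against SEN, to 0.15 on total counts, 0.14 and 0.14 in the limma fits and 0.34 with the length trend taken out. Lum, not called in BNPMT against NC, was at 0.0184 on total counts, 0.0190 and 0.0190 in the limma fits and 0.00968 without SEN 1 and BNPMT 1, and leaving out each library gave -0.0764 to 0.0159. Chad, not called there either, ran from -0.502 to 0.215 over left-out libraries. Chad had no value with the filter of 1 CPM in 3 libraries, and none in the 2-group fit of BNPMT and NC. The cause of these moves was not tested.

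Deviations of same-numbered libraries correlated at -0.24 to 0.058 between groups. These values cannot show whether same-numbered libraries were paired, given 3 libraries per group and the length trends in SEN 1 and BNPMT 1. With the replicate block, 9 members were higher in SEN against NC, 10 lower in BNPMT against SEN and 7 lower in BNPMT against NC, and it changed no call. Acan then had 0.67, -1.59 and -0.92 in the 3 comparisons. Few counts limit Chad, with 23, 51 and 21 counts over the 3 libraries of NC, SEN and BNPMT.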
